A study of Mus musculus with 18 samples.

Results

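Genes of the Schwann cell and its myelin sheath were followed through 18 samples of mouse spinal cord: *Prx*, *Ncmap*, *Drp2*, *Pmp22*, *Pmp2*, *Cldn19*, *Dhh*, *Egr2* and *Scn7a*. They were found in the deposited table by their gene symbols, and all 9 were present among its 55573 genes. The list was chosen by sheath and Schwann cell function with the male and female levels of these samples already known, so the difference between the sexes is given as a description. The samples came from the spinal dorsal horn (DHSC) on the side of a hindpaw injected with 2% formalin, taken 2 h after the injection from adult C57BL/6J mice. There were 6 males, 6 females labelled F1/Proestrus and 6 labelled F2/Metestrus, where F1 stands for a short and F2 for a long quiet interphase in the pain behavior. No sample from an uninjected mouse was analysed here, so all 3 groups share the formalin treatment and differ in sex or in behavior and estrus stage together. Nothing in the labels ties a library to a named mouse, while the study's methods describe the counts as those of biological replicates. The p-values measure the spread between these samples, which may in part be technical.

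Schwann cells wrap the axons of peripheral nerves and of the spinal roots, whereas oligodendrocytes make the myelin of the spinal cord itself. The transition lies where the roots enter the cord, so a dissected dorsal horn can carry a short length of root with it. *Egr2* (also called Krox20) is the zinc finger transcription factor that drives peripheral myelination, and its protein acts on many of the genes coding for the sheath. Desert hedgehog, coded by *Dhh*, is the signal by which Schwann cells organize the connective sheath around nerve bundles. *Prx*, *Drp2*, *Ncmap*, *Pmp22*, *Pmp2* and *Cldn19* code for parts of the myelin sheath, and *Scn7a* codes for a sodium channel found in non-myelinating Schwann cells and in other cells.

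The promoters of these genes are where EGR2 and related factors can act. Promoters of 4 genes are shown, beginning with the 2 genes named by the study in its male to female comparison (*Prx* and *Ncmap*). *Cldn19* was the 1 gene of the 9 called as different between the 2 library series, although its values overlapped. *Scn7a* was the gene that followed the others least. The sequences are from RefSeq on GRCm38.p6, each with 250 bases before and 50 bases after a transcription start. Capitals mark the letters GTGGGNG on either strand, the core read by EGR zinc fingers, and no other motif was searched. They lie at chr7:27499074-27499373 (plus strand), chr4:135398178-135398477 (minus strand), chr4:119255191-119255490 (plus strand) and chr2:66784861-66785160 (minus strand).
Prx: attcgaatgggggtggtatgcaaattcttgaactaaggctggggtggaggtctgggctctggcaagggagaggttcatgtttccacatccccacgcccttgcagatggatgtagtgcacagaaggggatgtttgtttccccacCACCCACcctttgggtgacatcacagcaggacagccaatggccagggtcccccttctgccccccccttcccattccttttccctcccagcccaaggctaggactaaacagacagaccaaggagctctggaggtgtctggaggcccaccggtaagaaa
Ncmap: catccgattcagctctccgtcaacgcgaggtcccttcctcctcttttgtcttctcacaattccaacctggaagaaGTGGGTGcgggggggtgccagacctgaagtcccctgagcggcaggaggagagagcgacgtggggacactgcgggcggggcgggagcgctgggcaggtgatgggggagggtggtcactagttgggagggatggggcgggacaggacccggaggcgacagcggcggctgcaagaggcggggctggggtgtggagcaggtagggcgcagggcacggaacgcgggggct
Cldn19: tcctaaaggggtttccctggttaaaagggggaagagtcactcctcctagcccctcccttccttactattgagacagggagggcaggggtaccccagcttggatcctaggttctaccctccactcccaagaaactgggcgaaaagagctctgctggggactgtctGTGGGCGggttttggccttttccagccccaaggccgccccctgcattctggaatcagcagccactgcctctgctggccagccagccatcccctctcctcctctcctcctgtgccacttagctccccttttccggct
Scn7a: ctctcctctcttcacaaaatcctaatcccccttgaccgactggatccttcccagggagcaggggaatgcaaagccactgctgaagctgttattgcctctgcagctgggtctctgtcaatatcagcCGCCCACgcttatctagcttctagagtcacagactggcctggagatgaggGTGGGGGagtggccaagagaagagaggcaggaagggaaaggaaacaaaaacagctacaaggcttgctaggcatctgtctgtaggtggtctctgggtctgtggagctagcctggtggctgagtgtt
Of the 9 genes 7 had a promoter in the RefSeq table, and *Drp2* and *Pmp2* did not. The promoter nearest the annotated gene start held a match in 6 of the 7, with none in that of *Pmp22*. The match began 107 bases before the start in *Prx*, 175 in *Ncmap*, 86 in *Cldn19* and 86 in *Dhh*, and *Egr2* had 3 matches. *Scn7a* had 2 matches, at 125 and 75 bases before its start. Since 31.6% of all 32851 promoters in the table held these letters, a match describes the sequence and is not evidence of binding.

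Libraries held between 73590509 and 125724156 counts, and every one of the 9 genes had at least 412 counts in every sample, so that the spread between samples and not the counting error set the precision. The library numbers in the table formed 2 series of 9, each with 3 samples of every group. Replicates 1 to 3 made up the first series and replicates 4 to 6 the second. A single library stood apart from the rest. F1/proestrus sample 5 had 498 CPM (counts scaled to a common library size) summed over 10 marker genes of sensory ganglion neurons, against 2.44 to 4.73 CPM in the other 17 samples. *Scn10a*, a sodium channel of nociceptors, was at 125 CPM in it and at most 0.153 CPM in the other females. Results that rest on this library are given with and without it, except correlations with group and series means removed, which include it.

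The levels of 11 further Schwann cell genes were read first. All 11 were detected, which does not identify Schwann cells, since several are shared with oligodendrocytes or with immature glia. *Cdh19*, a cadherin of the Schwann cell lineage, stood at 31.1 ± 4.42 CPM (SD, n = 18). *Sox10*, which oligodendrocytes also express, stood at 66.0 ± 10.7 CPM (SD, n = 18). The neighbouring central myelin was far more abundant, with 12 oligodendrocyte genes at a sum of 30011 to 37909 CPM, against 1122 to 3431 CPM for the sum of the 9 genes.

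Levels differed widely between the 9 genes when divided by the length of their exons. *Pmp22*, a small membrane protein of compact myelin, was at 435 ± 175 CPM per kilobase of exon (SD, n = 18) and was the highest of the 9 in all 18 samples. *Prx* (periaxin, which anchors the sheath to its basal lamina) followed at 52.3 ± 16.3 CPM per kilobase. *Drp2*, its partner in the dystroglycan complex, was at 25.7 ± 6.80, and *Ncmap*, a membrane protein of the sheath, at 16.98 ± 5.29 CPM per kilobase. These 4 kept their order in 18 of 18 samples. *Pmp2*, a fatty acid binding protein of myelin, was at 6.47 ± 3.24 CPM per kilobase and *Egr2* at 6.18 ± 1.46. The pair could not be ordered, since *Pmp2* was above *Egr2* in 8 of 18 samples. *Dhh* was at 5.50 ± 2.06 CPM per kilobase. *Cldn19*, a tight junction protein of the sheath, was at 3.28 ± 1.34 and *Scn7a* at 3.18 ± 1.35 CPM per kilobase, and *Cldn19* was above *Scn7a* in 10 of 18 samples.

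Of the 9 genes, 4 share exonic sequence with another annotated gene on GRCm38, and their counts are less certain because the strand setting of the counting is not given in the sources used here. *Prx* (chromosome 7, 27499324 to 27520214) overlaps *Gm15541* on the opposite strand, whose counts came to 6.45% of those of *Prx*. *Cldn19* (chromosome 4, 119255414 to 119262438) overlaps *Gm12927* on the opposite strand, with 13.4% of its counts. *Dhh* (chromosome 15, 98891152 to 98898540) overlaps *Rhebl1* on the same strand and *Gm49442* on the other, with 53.7% and 53.4% of its counts. *Pmp2* (chromosome 3, 10179851 to 10183929) overlaps *Gm37389* on the same strand, with 88.4% of its counts. The other 5 share no exon with another gene: *Ncmap* (chromosome 4, 135369576 to 135398227), *Drp2* (chromosome X, 134404551 to 134456573), *Pmp22* (chromosome 11, 63128982 to 63159547), *Egr2* (chromosome 10, 67535475 to 67542188) and *Scn7a* (chromosome 2, 66673425 to 66784914).

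Values in single samples were examined next, beginning with the genes of sheath proteins that link myelin to its surroundings. *Prx* ran from 186 to 372 CPM in F1/proestrus (median 215), from 204 to 329 CPM in F2/metestrus (median 237) and from 294 to 503 CPM in males (median 348). The highest female, F1/proestrus sample 5, lay above 4 of the 6 males, so the sexes overlapped. *Drp2* ran from 151 to 261 CPM in F1/proestrus (median 201), from 140 to 246 CPM in F2/metestrus (median 195) and from 195.55 to 345 CPM in males (median 246). Males 3 and 5 were above all females for *Drp2* and the other 4 males were not. *Ncmap* ran from 27.9 to 44.1 CPM in F1/proestrus (median 32.1), from 28.0 to 33.0 CPM in F2/metestrus (median 29.55) and from 33.7 to 69.2 CPM in males (median 50.02). For *Ncmap*, F1/proestrus sample 5 was the only female above the lowest male.

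The genes coding for proteins of compact myelin and of its junctions varied more. *Pmp22*, whose dosage is altered in inherited neuropathies, ran from 651 to 1414 CPM in F1/proestrus (median 794), from 668 to 972 CPM in F2/metestrus (median 873) and from 901 to 2363 CPM in males (median 1260). *Pmp2* ran from 4.26 to 15.7 CPM in F1/proestrus (median 5.96), from 4.51 to 12.2 CPM in F2/metestrus (median 8.84) and from 6.70 to 21.4 CPM in males (median 9.30). It was the most variable of the 9 genes, with a coefficient of variation of 50.03% over the 18 samples, and its ranges overlapped broadly. *Cldn19* ran from 8.06 to 17.99 CPM in F1/proestrus (median 10.2), from 9.39 to 13.6 CPM in F2/metestrus (median 11.6) and from 11.9 to 31.6 CPM in males (median 16.8). The top value of each of these 3 genes was in male sample 5.

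Of the signal and the transcription factor, *Dhh* ran from 15.4 to 38.3 CPM in F1/proestrus (median 16.7), from 17.8 to 24.9 CPM in F2/metestrus (median 20.1) and from 22.7 to 48.5 CPM in males (median 27.9). *Egr2* ran from 12.4 to 27.9 CPM in F1/proestrus (median 16.6), from 17.6 to 23.6 CPM in F2/metestrus (median 19.6) and from 19.5 to 31.0 CPM in males (median 25.1). It was the least variable of the 9, with a coefficient of variation of 23.7%. *Scn7a* ran from 13.1 to 55.7 CPM in F1/proestrus (median 21.3), from 15.6 to 25.6 CPM in F2/metestrus (median 19.35) and from 16.7 to 31.8 CPM in males (median 24.0). Its ranges in the 3 groups lay over one another, and its highest value was in F1/proestrus sample 5.

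**Figure D1:**
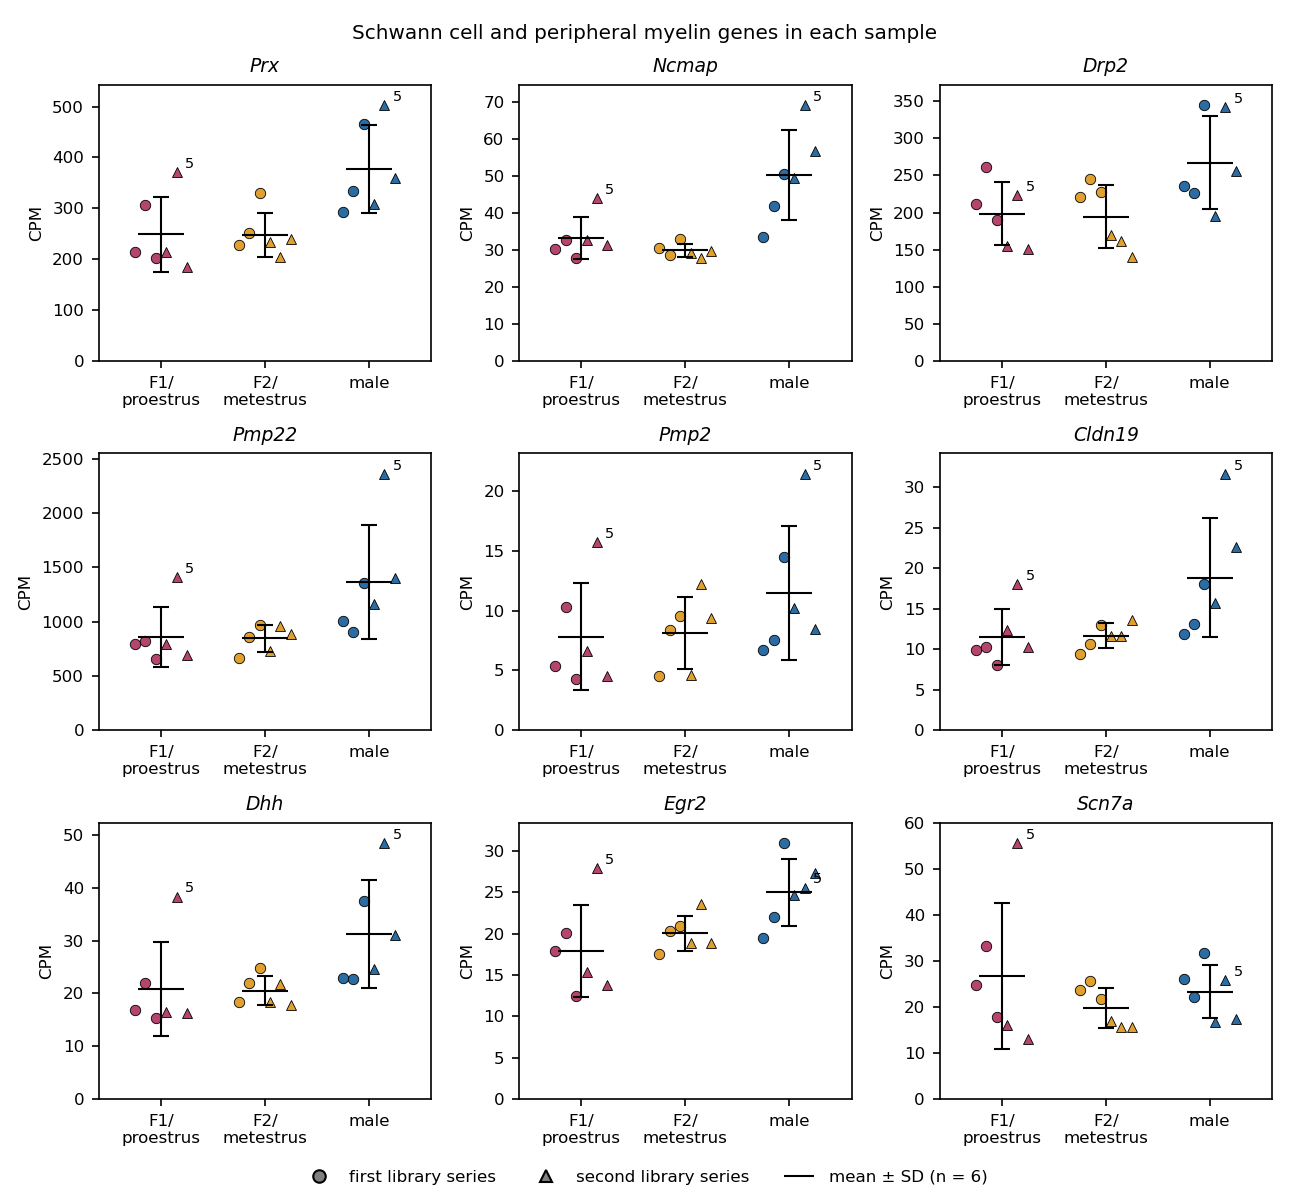
CPM (counts scaled to library size, vertical axes from 0) of the 9 genes in each sample, by group. Circles are samples of the first library series and triangles those of the second, black bars give the mean ± SD (n = 6), and sample 5 of F1/proestrus and of the males is marked. Male sample 5 was the highest of all 18 samples for 6 of the 9 genes, and F1/proestrus sample 5 was the highest female for 8 of the 9.

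A pair of samples stood out across the list. Male sample 5 was the highest of the 18 samples for *Prx*, *Ncmap*, *Pmp22*, *Pmp2*, *Cldn19* and *Dhh*, and male sample 3 for *Drp2* and *Egr2*. F1/proestrus sample 5 was the highest of the 12 females for every gene but *Drp2*. At the other end, F1/proestrus sample 3 had the lowest value of the 18 for 6 of the 9 genes and F1/proestrus sample 6 for 2.

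The 9 genes rose and fell together from sample to sample, as a description over 18 samples that share their library and their dissection. Each gene was set against the mean of the other 8, after every gene was standardized on the log2 CPM scale. *Dhh* followed the others most closely, with Pearson's r of 0.98 (Spearman's rho 0.95), then *Prx* with r of 0.95 (rho 0.93) and *Pmp22* with r of 0.93 (rho 0.89). *Cldn19*, *Egr2*, *Ncmap* and *Pmp2* had r between 0.83 and 0.85, and *Drp2* had r of 0.74. *Scn7a* followed least, with r of 0.51 (rho 0.54), and without F1/proestrus sample 5 its r was 0.45. When the mean of each group within each library series was subtracted first, all 9 genes had r between 0.82 and 0.98, with *Scn7a* at 0.84. These values include F1/proestrus sample 5 and were not computed without it. *Scn7a* was at 55.7 CPM in that sample, against 16.0 and 13.1 CPM in F1/proestrus samples 4 and 6 of the same series. Whether *Scn7a* followed the others apart from that sample was therefore not shown. Over the 28 pairs of genes without *Scn7a*, r ranged from 0.53 to 0.95 with a median of 0.82, while the 8 pairs with *Scn7a* ranged from 0.23 to 0.65.

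**Figure D2:**
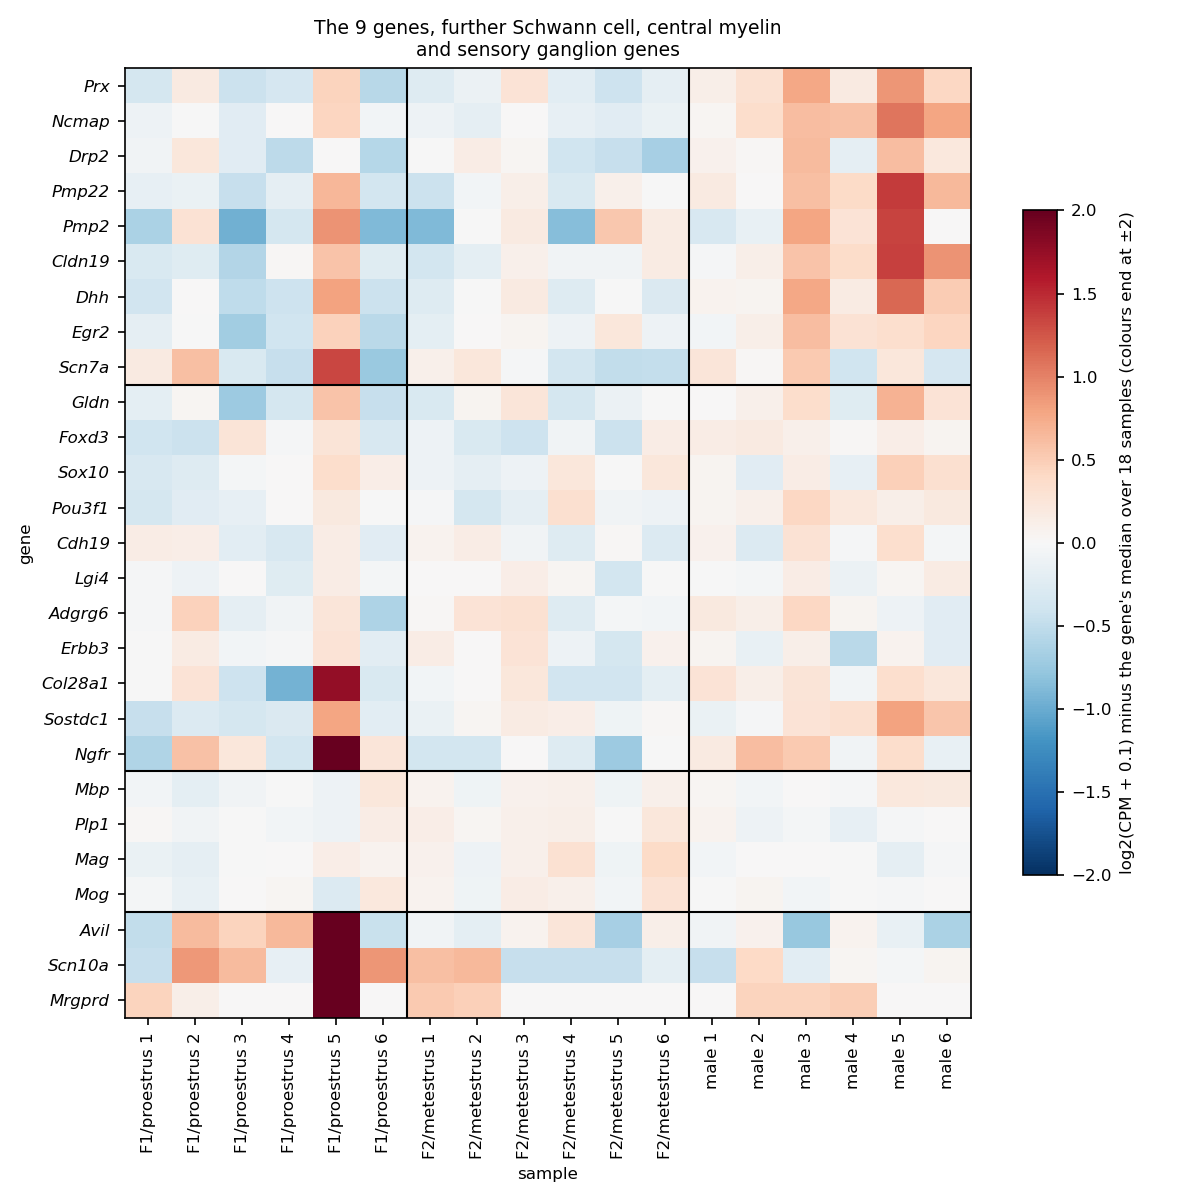
Level of each gene in each sample as log2(CPM + 0.1) minus that gene's median over the 18 samples, red above and blue below the median, with colours ending at ±2. Rows from the top are the 9 genes, the 11 further Schwann cell genes, 4 central myelin genes and 3 sensory ganglion genes. The columns of F1/proestrus sample 5 and male samples 3, 5 and 6 are red over most of the upper rows, whereas central myelin rows are pale, and the sensory ganglion rows are dark only in F1/proestrus sample 5.

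Other genes of the table were ranked by how closely they followed the mean of the 9, among 17754 genes with a mean of at least 1 CPM. The first 3, *Gm49442* (r = 0.97, 18 samples), *Gm15541* (r = 0.95) and *Rhebl1* (r = 0.95), are the genes that share exons with *Dhh* or *Prx*, so their likeness may hold the same reads. They were followed by *Mboat1* (r = 0.95), a phospholipid acyltransferase, *Sema3b* (r = 0.95), a secreted semaphorin, *Mlip* (r = 0.95), a lamin-interacting protein, and *Matn2* (r = 0.94), a matrilin of the extracellular matrix. *Plekha4* (r = 0.94), *P2ry2* (r = 0.94), a nucleotide receptor, and *Them5* (r = 0.93) completed the first 10. With group and series means removed, r of *Sema3b* was 0.99 and r of *P2ry2* was 0.97. *Sema3b* averaged 112.1 ± 29.0 CPM in males against 85.9 ± 18.7 CPM in females (SD, n = 6 and 12). In all, 23 genes outside the list had r above 0.9.

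The study compared males with all females, and it was the contrast for which *Prx* and *Ncmap* were named. The 9 genes were therefore described in it rather than tested as a group, and their adjusted p-values, from edgeR's quasi-likelihood test over all 24862 genes tested, are not independent evidence. Of the 9 genes, 8 had a log2 fold change above 0, with a median of 0.59 against -0.0013 over all genes tested. In bulk tissue more Schwann cells, more RNA per Schwann cell and RNA of these genes from other cells cannot be told apart. *Ncmap* averaged 50.3 ± 12.2 CPM in males against 31.6 ± 4.34 CPM in females (SD, n = 6 and 12), with a log2 fold change of 0.67 ± 0.111 (SE, with adjusted p = 0.00654). It was the single gene of the 9 past a false discovery rate (FDR) of 5%, at which 0.197% of all genes tested were called (0.149% as higher and 0.0483% as lower in males).

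The other genes missed this threshold in edgeR. DESeq2 with default settings called *Prx* and *Cldn19* besides *Ncmap*, with 0.707% of all genes called. *Cldn19* averaged 18.8 ± 7.33 CPM in males and 11.5 ± 2.57 CPM in females (SD, n = 6 and 12), with a log2 fold change of 0.71 ± 0.171 (SE, with adjusted p = 0.125 in edgeR). *Pmp22* averaged 1366 ± 525 CPM in males and 854 ± 206 CPM in females, and its log2 fold change was 0.68 ± 0.168 (SE, with adjusted p = 0.143). *Prx* averaged 378 ± 86.4 CPM in males and 248 ± 57.5 CPM in females, and its log2 fold change was 0.60 ± 0.139 (SE, with adjusted p = 0.0942). *Dhh* had a log2 fold change of 0.59 ± 0.177 (SE, with adjusted p = 0.270), and *Pmp2* one of 0.53 ± 0.282 (SE, with adjusted p = 0.546). *Drp2*, at 0.44 (adjusted p of 0.292), and *Egr2*, at 0.40 (adjusted p of 0.323), were lower still. *Scn7a* averaged 23.3 ± 5.75 CPM in males and 23.3 ± 11.7 CPM in females, and its log2 fold change was -0.0016 ± 0.243 (SE).

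Both of the outlying samples moved these values. Without F1/proestrus sample 5, 5 of the 9 genes passed the FDR of 5%, with 0.311% of all genes called: *Prx* at 0.67 (adjusted p of 0.0146), *Ncmap* at 0.72 (0.000557), *Pmp22* at 0.77 (0.0194), *Cldn19* at 0.78 (0.0303) and *Dhh* at 0.71 (0.0277) on the log2 scale, by the same edgeR test. Without male sample 5, *Ncmap* alone passed, at 0.55 (adjusted p of 0.0308), with 0.0994% of all genes called, and *Pmp2* dropped to 0.24 and *Pmp22* to 0.44. *Scn7a* turned from -0.0016 to 0.19 (adjusted p of 0.725) without F1/proestrus sample 5 and was -0.042 without male sample 5. No gene of the 9 was higher in all males than in all females, a pattern that 0.0724% of all genes tested showed. Without F1/proestrus sample 5 it held for *Ncmap*, and for 0.109% of all genes.

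The sex differences were next fitted within each library series. *Ncmap* had a log2 fold change of 0.44 ± 0.103 (SE) in the first series and 0.85 ± 0.138 (SE) in the second, *Drp2* 0.24 and 0.67, *Pmp22* 0.44 and 0.85, *Cldn19* 0.48 and 0.86, and *Prx* 0.50 and 0.70. *Egr2* had 0.39 in both. *Scn7a* had 0.11 in the first and -0.15 in the second. None of the 9 passed an FDR of 5% in either series alone, each with 3 males and 6 females. Over all genes 0.0629% were called in the first series and 0.0531% in the second, so this is no result about the 9. The difference between the series was tested as an interaction of sex and series over 24862 genes, and 0 genes were called by edgeR, the share being 0%. At an unadjusted p under 0.05 the interaction held 1235 of the 24862 genes, none of them among the 9. DESeq2 gave an adjusted p to 3181 genes only and called 11 (0.346%), none of the 9. With such shares over all genes, neither absence is read as a result about the 9. Without F1/proestrus sample 5 the interaction again gave 0 genes, with 3 of the 9 (*Ncmap*, *Drp2* and *Pmp22*) and 4.77% of all genes at an unadjusted p under 0.05. With library series as a covariate in the model, *Ncmap* and *Cldn19* passed (adjusted p of 0.00216 and 0.0239), with 0.539% of all genes called.

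**Figure D3:**
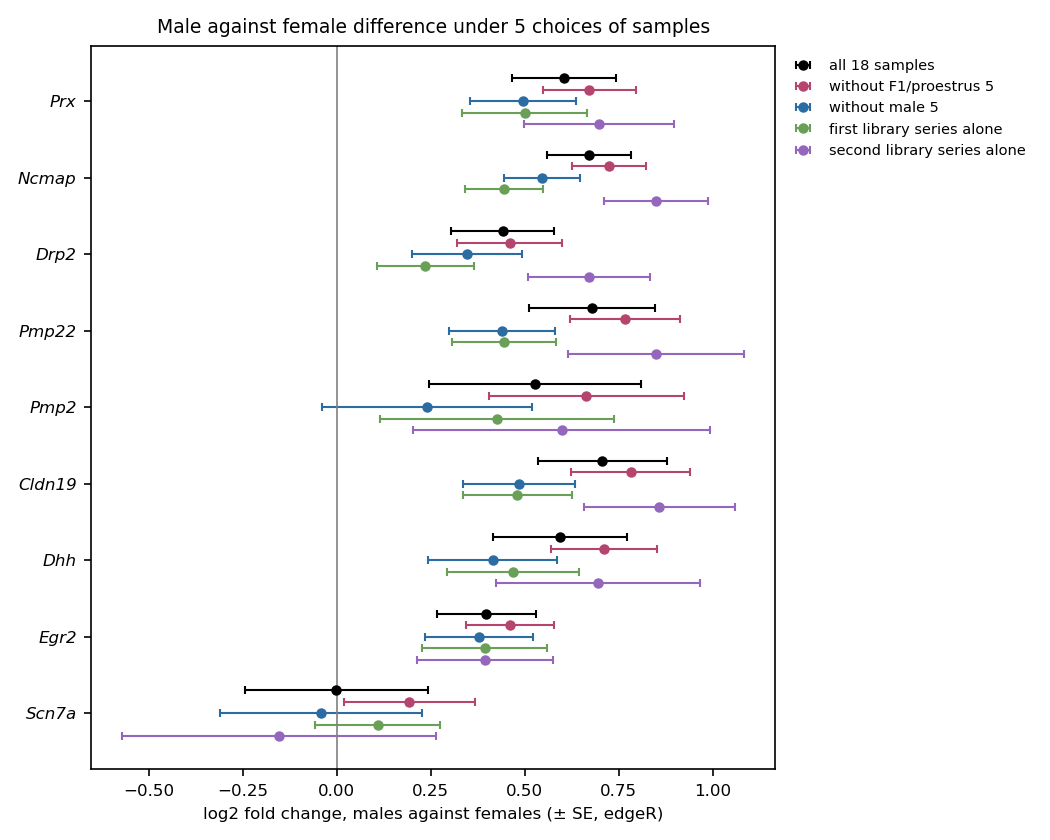
Log2 fold change of males against females for each of the 9 genes (horizontal axis, points with bars of ± 1 standard error from edgeR), in all 18 samples, without F1/proestrus sample 5, without male sample 5, and in each library series alone. All points of 8 genes lie above 0, from 0.24 to 0.86, and those of Scn7a lie on both sides of 0.

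Males were also set against each female group alone, with the same 6 males in both. *Prx* was at 0.59 against F1/proestrus and 0.60 against F2/metestrus on the log2 scale, *Cldn19* at 0.71 and 0.69, *Dhh* at 0.57 and 0.60, and *Ncmap* at 0.59 and 0.74. *Egr2* was at 0.47 and 0.31. *Scn7a* was at -0.21 against F1/proestrus and 0.22 against F2/metestrus, neither past the threshold (adjusted p of 0.908 and 0.745 in edgeR). *Ncmap* passed an FDR of 5% in edgeR against F2/metestrus (adjusted p of 0.0481), with 0.0915% of all genes called. Against F1/proestrus it did not (adjusted p of 0.507), with 0.0535% of all genes called. Whether these 2 differences are unequal was not tested here.

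The further genes of the Schwann cell, several of which are shared with oligodendrocytes or with immature glia, gave other values. *Cdh19* ran from 24.9 to 34.7 CPM in F1/proestrus (median 30.6), from 25.8 to 34.5 CPM in F2/metestrus (median 30.5) and from 25.8 to 39.4 CPM in males (median 32.0), with a log2 fold change of 0.13 ± 0.0931 (SE, with adjusted p = 0.664 in edgeR). The 3 ranges overlapped, and the highest value was in male sample 5. *Sox10* had a log2 fold change of 0.12 (adjusted p of 0.723), *Lgi4*, a secreted factor of myelinating glia, 0.068 (adjusted p of 0.737), and *Erbb3*, a neuregulin receptor, -0.12 (adjusted p of 0.678). Of the 11 genes of this list none was called and 9 were above 0, with a median of 0.12, and without F1/proestrus sample 5 none was called and 10 were above 0, with a median of 0.28. *Ngfr*, the lowest at -1.09, was at 24.3 CPM in F1/proestrus sample 5 and between 0.660 and 1.83 CPM elsewhere.

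Around the 9 genes, 3 lists of partners were examined in the same comparison, and no gene in them was called. The 10 regulators around *Egr2* (its corepressors, *Jun*, *Sox2*, *Notch1* and others) had a median log2 fold change of 0.0010, from -0.15 to 0.25. The 12 genes of the dystroglycan and laminin complex, through which periaxin and DRP2 are tied to the basal lamina, had a median of 0.077 with 8 above 0, from -0.11 to 0.20. The 12 genes of the hedgehog pathway, which would receive the signal of *Dhh*, had a median of 0.0092 with 6 above 0, from -0.26 to 0.26. All 3 medians lay nearer to the -0.0013 of all genes than to the 0.59 of the 9 genes. Since the 9 genes were listed with their sex difference known, the 0.59 is no measure for other lists, and no conclusion is drawn.

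**Figure D4:**
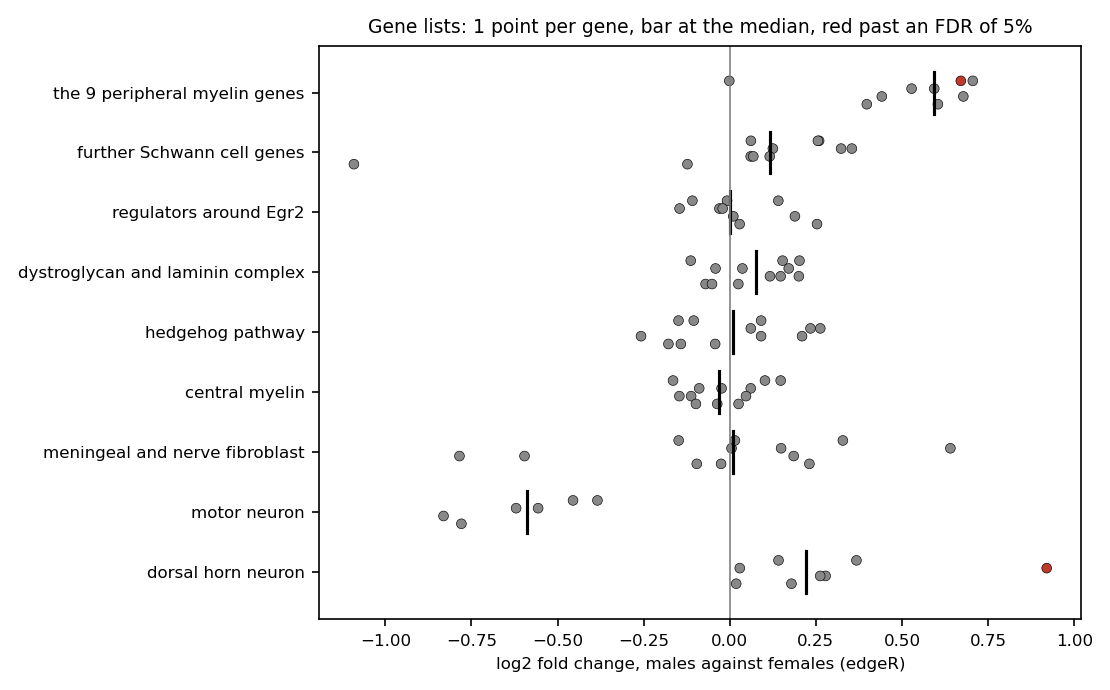
Log2 fold change of males against females (horizontal axis, edgeR, all 18 samples) for each gene of 9 lists, with 1 point per gene and a bar at the list's median. The points in red, Ncmap and the dorsal horn gene Grp, passed an FDR of 5%. The 9 peripheral myelin genes had a median of 0.59, the central myelin genes one of -0.030 and the motor neuron genes one of -0.59.

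Genes of other cells that a dissected dorsal horn could hold were set beside these differences. The 12 central myelin genes had a median of -0.030, with 5 above 0 and none called. All 6 motor neuron genes were below 0, with a median of -0.59 and none called. Their summed level was 22.9 CPM in male sample 5, the lowest of all samples, 33.0 to 322 CPM in females and 165.5 CPM in the highest male. In this list *Prph* and *Isl1* are also expressed by sensory neurons, and the 322 CPM belonged to F1/proestrus sample 5. The 8 dorsal horn neuron genes were all above 0, with a median of 0.22, and *Grp*, a gene the study itself named, was called. The 12 genes of meningeal and nerve fibroblasts had a median of 0.0099 and summed to 342 to 740 CPM in females and 422 to 760 CPM in males. The 7 tested genes of the sensory ganglion list were all below 0 (median -4.68), none called, with 1 of the 10 at 0 in all males. This median came from F1/proestrus sample 5, at a sum of 498 CPM, and without that sample 3 of the 6 genes then tested were above 0, with a median of -0.10. The motor neuron median without it was -0.40, again with all 6 genes below 0. The 6 endothelial genes had a median of -0.069 and the 5 red blood cell genes one of -0.14. The part of these cells in the result was not tested.

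Across samples, the mean of the 9 genes followed some of these lists, given here as a description over 18 samples that share dissection and library. Against the mean of the 11 further Schwann cell genes Pearson's r was 0.85 (rho 0.77), and 0.80 without male samples 3 and 5, which lay farthest from the median. Against the fibroblast list r was 0.61 (rho 0.57) and against the dystroglycan and laminin list 0.71 (rho 0.73). The dorsal horn neuron list had r of 0.44 (rho 0.37) and the regulators around *Egr2* had 0.43 (rho 0.33). Against central myelin r was -0.17 (rho -0.21). Against motor neurons it was -0.28 (rho -0.16), and -0.015 without male samples 3 and 5. Against the sensory ganglion list r was 0.31 (rho -0.17), and -0.25 without F1/proestrus sample 5. With the means of group and series removed, the dystroglycan and laminin list stood at 0.95, the further Schwann cell genes at 0.86 and the fibroblast list at 0.75. The regulators then stood at 0.66, the sensory ganglion list at 0.64 with F1/proestrus sample 5 included, and the hedgehog pathway at 0.46. The remaining lists lay between -0.25 and 0.043. All values with these means removed include F1/proestrus sample 5 and were not computed without it.

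**Figure D5:**
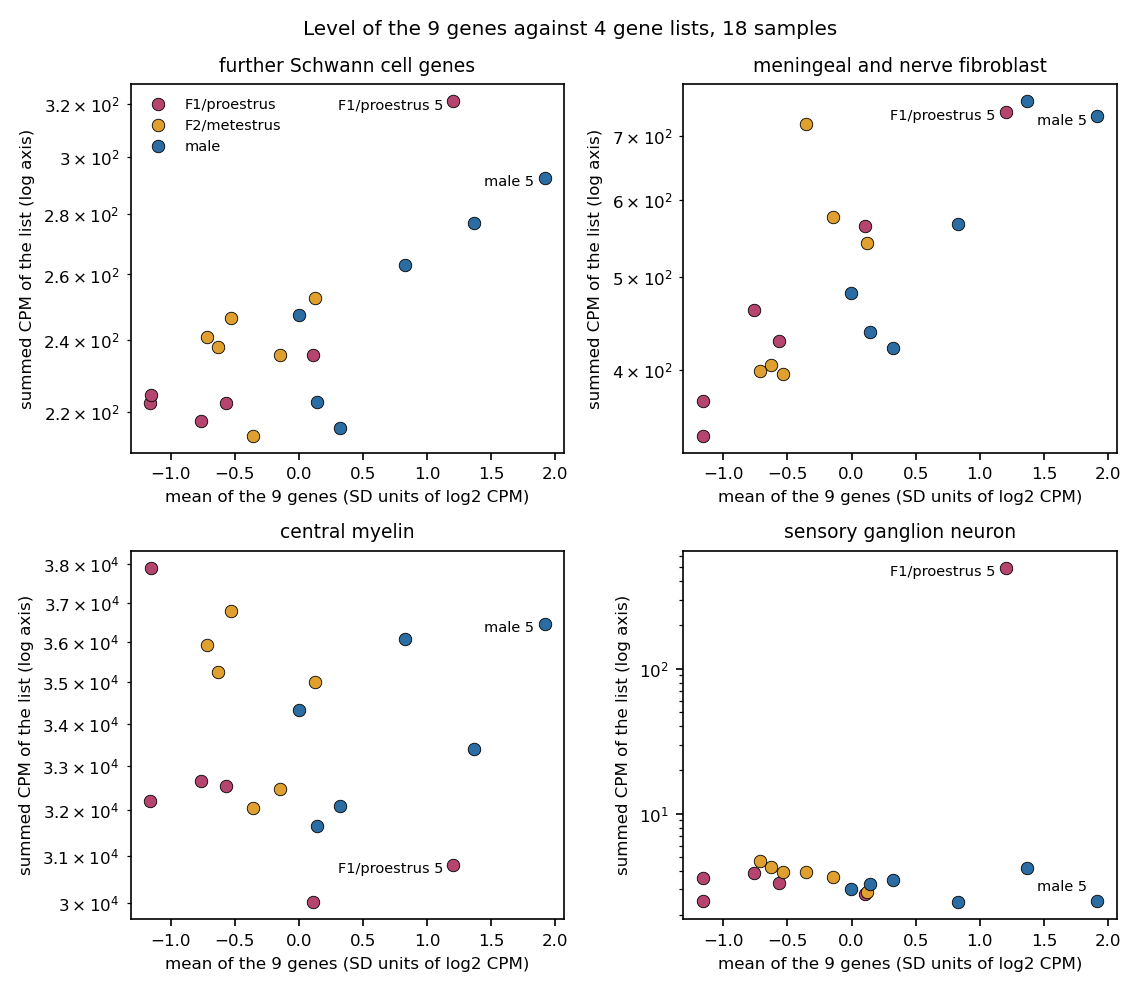
Summed CPM of 4 gene lists (vertical log axes) against the mean of the 9 genes (horizontal axes, in SD units of log2 CPM) in the 18 samples, coloured by group. The further Schwann cell genes are highest in samples with high levels of the 9 genes, at 292 CPM in male sample 5 and 321 CPM in F1/proestrus sample 5, central myelin shows no such rise, and F1/proestrus sample 5 alone reaches 498 CPM for the sensory ganglion list.

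The female groups were also compared with each other, F2/metestrus against F1/proestrus. None of the 9 genes passed the test, and edgeR called 0 of 24042 genes (0%) at an FDR of 5%, with 596 genes but none of the 9 at an unadjusted p under 0.05, and DESeq2 called 2 genes, neither among the 9. *Prx* averaged 248 ± 43.1 CPM in F2/metestrus and 249 ± 73.7 CPM in F1/proestrus (SD, n = 6 each), a log2 fold change of -0.011 ± 0.163 (SE). *Pmp22* had a log2 fold change of -0.029 ± 0.162 (SE) and *Dhh* one of -0.030 ± 0.197 (SE). *Egr2* had the highest value, 0.16 ± 0.160 (SE), and *Scn7a* the lowest, -0.43 ± 0.292 (SE). Both moved when F1/proestrus sample 5 was left out, *Scn7a* towards 0 and *Egr2* away from 0. Without it *Scn7a* had a log2 fold change of -0.080, *Egr2* one of 0.33 ± 0.117 (SE), *Dhh* one of 0.24 ± 0.108 (SE), and *Pmp2* was then the highest, at 0.38 ± 0.275 (SE). *Egr2* and *Dhh* were then the 2 of the 9 at an unadjusted p under 0.05, where 3.20% of all genes were, and edgeR again called 0 genes, with an adjusted p of 0.9999 for all 9.

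The spread within F1/proestrus was the wider for 8 of the 9 genes, and much of it came with sample 5. *Dhh* had a coefficient of variation of 42.4% in F1/proestrus, 14.9% there without sample 5, and 13.55% in F2/metestrus. *Ncmap* had 16.96%, 6.46% and 5.94% in the same order, and *Scn7a* 59.4%, 38.5% and 21.9%. *Pmp22* had 32.3% with sample 5 and 9.72% without it, below the 14.7% of F2/metestrus. For *Drp2* the values were near each other, at 21.4%, 23.5% and 21.9%. Sample 5 lay well outside the others of F1/proestrus for several genes, such as *Ncmap*, at 44.1 CPM where the other 5 lay between 27.9 and 32.8 CPM.

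The library series were compared with group in the model. Here edgeR called 27.6% of 24038 genes, 12.4% as higher and 15.2% as lower in the second series, so a call in this comparison is common. *Cldn19* was the 1 gene of the 9 past the threshold. It averaged 16.4 ± 6.91 CPM in the second series and 11.6 ± 2.93 CPM in the first (SD, n = 9 each), a log2 fold change of 0.45 ± 0.138 (SE, with adjusted p = 0.0203), and it stayed past the threshold with each sample left out in turn. *Drp2* went the other way, with 199 ± 65.6 CPM in the second and 240 ± 44.0 CPM in the first series, a log2 fold change of -0.32 ± 0.120 (SE, with adjusted p = 0.0517). *Scn7a* had a log2 fold change of -0.29 ± 0.220 (SE, with adjusted p = 0.364).

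F1/proestrus sample 5, which belongs to the second series, weighed on these values. Without it *Scn7a* was at -0.57 (adjusted p of 0.000973) and *Drp2* at -0.36 (adjusted p of 0.0236), both past the threshold in edgeR with 28.5% of all genes called, and *Cldn19* was at 0.39 (adjusted p of 0.0296). Within F2/metestrus alone *Scn7a* was at -0.56 (adjusted p of 0.0139) and *Drp2* at -0.56 (adjusted p of 0.00869), with 3.23% of all genes called. Within males alone *Drp2* was at -0.023 and *Scn7a* at -0.42, neither past the threshold. In single samples *Scn7a* was also set against *Prx*. *Scn7a* came to between 4.81% and 7.64% of the CPM of *Prx* in 8 of the 9 samples of the second series, and to 14.98% in F1/proestrus sample 5. In the first series it came to between 6.58% and 11.6%, so the series overlapped.

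Among the partners of the 9 genes, several were called between the series. *Sox10* was higher in the second series, with a log2 fold change of 0.28 ± 0.0765 (SE, with adjusted p = 0.0103), while *Adgrg6*, an adhesion receptor needed for Schwann cell myelination, was lower at -0.32 (0.0271). The call of *Adgrg6* held in 11 of 18 fits that left out a sample, with adjusted p up to 0.0833, and was lost without F1/proestrus 2 or 6, F2/metestrus 2 or 4, or male 3, 5 or 6. These were 1 higher and 1 lower of 11 further Schwann cell genes. *Zeb2* and *Notch1* were the 2 called of 10 regulators, both lower, at -0.23 (adjusted p of 0.00368) and -0.33 (0.000253). In all, 4 of 12 dystroglycan and laminin genes were lower: *Lama2* at -0.55, *Lamc1* at -0.47, *Utrn* (utrophin) at -0.29 and *Dmd* (dystrophin) at -0.22. Likewise 3 of 12 hedgehog pathway genes were lower, the receptor *Ptch1* at -0.43 and the transcription factors *Gli2* and *Gli3* at -0.41 and -0.65. These shares stood beside 27.6% of all genes.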

How the data were processed

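RNA of 18 DHSC samples was measured by RNA-Seq. The authors deposited raw read counts per gene, not normalized, which per the labels came from Subread 2.0.3 with featureCounts on mm10, and the study's methods name an annotation of the same build. A second deposited table holds the authors' own fold changes and p-values and was used for gene symbols only. According to the labels libraries were made with SMART-Seq v4 and Nextera XT, whereas the study's methods name TruSeq. Amplified full-length cDNA of this kind carries no molecular identifiers, so counts hold PCR copies.

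Counts were filtered with filterByExpr (minimum 10, total 15), TMM-scaled and tested by the quasi-likelihood method of edgeR 4.0.16 (R 4.3.3), with p-values adjusted by Benjamini and Hochberg over all genes tested and an FDR of 5%. The fits were males against females, F2/metestrus against F1/proestrus, the second against the first library series with group in the model, and the sex by series interaction. Log2 CPM used a prior count of 2. DESeq2 1.42.0, other scaling, no filter, covariates, single series and groups, and leaving out each sample were alternatives. A fit with library series as covariate without F1/proestrus sample 5, and a series fit of females without it, were added after seeing the data. The fits were tested on simulated data.

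The 9 genes and all lists (further Schwann cell, regulators around *Egr2*, dystroglycan and laminin, hedgehog, central myelin, sensory ganglion, fibroblast, endothelium, motor neuron, dorsal horn neuron, red blood cell) were chosen with earlier results of these data known, and 1 gene of the further Schwann cell list is not reported here. Named were all 9 genes, of the first 4 further lists the genes past the FDR and at most 4 others of highest CPM, and the 10 genes most correlated with the 9; *Ngfr* and the genes of other lists named singly were chosen after their values were seen. Positions are from GENCODE vM21 (GRCm38), which placed 55480 of 55573 gene IDs. Replicate numbers are shared by the groups. With group means removed, 9 of 18 same-numbered pairs correlated above 0.1, and with series means removed too 1 did. The main fits used no pairing by number. This check cannot exclude one, since each mean removed then rests on 3 samples.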

Additional observations from a re-analysis of the deposited data

Results flagged for a closer look

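In each group of 6 samples the highest and lowest value of 13 genes (the 9 genes, *Sox10*, *Lgi4*, *Erbb3* and *Cdh19*) was set against Dixon's 95% critical value, and 5 values in 39 groups lay beyond it. Chance alone flags about 1 in 20 groups. In all, 3 of them were in F1/proestrus sample 5: *Ncmap* at 44.1 CPM against 27.9 to 32.8 CPM in the other 5, *Pmp22* at 1414 CPM against 651 to 818 CPM, and *Dhh* at 38.3 CPM against 15.4 to 21.9 CPM. Male sample 5 held *Pmp22* at 2363 CPM against 901 to 1399 CPM in the other males. *Lgi4* was low in F2/metestrus sample 5, at 44.6 CPM against 57.3 to 62.7 CPM. F1/proestrus sample 5 also held the sensory ganglion markers, and male sample 5 the lowest motor neuron markers. The part of these cells in the values was not tested.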

How the results depend on the processing

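Males against females gave 49 genes (0.197% of those tested), 1 of them among the 9. DESeq2 called 167 (0.707%) and 3 of the 9 (*Prx*, *Ncmap* and *Cldn19*), and library series as a covariate gave 134 (0.539%) and 2. The first series alone gave 16 (0.0629%) and 0, and the second alone 13 (0.0531%) and 0. Males against F1/proestrus gave 13 (0.0535%) and 0, and against F2/metestrus 22 (0.0915%) and 1. Without single samples the count ran from 25 genes (0.0994%, male sample 5) to 77 (0.311%, F1/proestrus sample 5) and from 1 to 5 of the 9. With the covariate and without F1/proestrus sample 5 it was 177 (0.715%) and 6. *Ncmap* was called in 18 of 18 fits that leave out a sample, with adjusted p from 0.000557 to 0.0374. As a replicate block, the numbers gave 148 genes (0.595%) and 5 of the 9 (*Prx*, *Ncmap*, *Pmp22*, *Cldn19* and *Dhh*). Of the 18 samples, 5 correlated best with their own number within their series, where each series holds 3 numbers. Under the block *Scn7a* turned to 0.049, and between the female groups *Prx* to 0.023, *Pmp22* to 0.0085 and *Dhh* to 0.045, with no gene of the 9 called. *Scn7a* in males against females was also above 0 in the first series (0.11), against F2/metestrus (0.22), and with the covariate and without F1/proestrus sample 5 (0.24), and it ran from -0.12 to 0.19 over single samples left out. *Cdh19* was at -0.0058 in the first series alone.

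Between the female groups DESeq2 called 2 genes (0.00453%). In the first series alone *Prx* was at 0.15, *Ncmap* at 0.014, *Drp2* at 0.060, *Pmp22* at 0.13 and *Dhh* at 0.26, and in the second *Pmp2* at -0.040 and *Cldn19* at -0.14, all of the other sign than in all females. Over single samples left out, *Cldn19* ran from -0.066 to 0.20, *Dhh* from -0.10 to 0.24, *Drp2* from -0.11 to 0.063, *Egr2* from 0.071 to 0.33, *Pmp2* from -0.10 to 0.38, *Pmp22* from -0.099 to 0.17 and *Prx* from -0.11 to 0.14. The interaction gave 11 genes in DESeq2, 0.346% of the 3181 with an adjusted p. In edgeR with single samples left out it ran from -0.11 to 0.51 for *Dhh* and from -0.13 to 0.22 for *Egr2*. It ran from -0.37 to 0.60 for *Pmp2*, from -0.048 to 0.41 for *Prx* and from -0.51 to 0.24 for *Scn7a*.

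Between the library series 2 of the 9 were called without the filter, with 12.7% of all genes called. Over single samples left out it was 1 to 3 of the 9, with 24.1% to 28.6% of all genes. F1/proestrus alone gave 77 genes (0.314%) and 0 of the 9, F2/metestrus 781 (3.23%) and 2, and males 1198 (4.9%) and 0. Females without F1/proestrus sample 5 gave 4110 (17%) and 2. Signs turned in F1/proestrus alone (*Prx* 0.097, *Scn7a* 0.17), in F2/metestrus alone (*Ncmap* -0.090, *Dhh* -0.17), in males alone (*Prx* 0.099) and in females without F1/proestrus sample 5 (*Ncmap* -0.014, *Dhh* -0.16, *Egr2* -0.057). Over single samples left out *Egr2* ran from -0.00087 to 0.18 and *Prx* from -0.13 to 0.031. The causes were not tested. Scaling by size factors in place of TMM changed no call among the 9, with male to female ratios of the mean of 0.993 (*Scn7a*) to 1.62 (*Cldn19*).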

Other observations

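Genes outside the 9 that followed their mean most closely and share no exon with them had these levels. *Mlip* averaged 27.5 ± 10.3 CPM in males against 17.6 ± 3.04 CPM in females (SD, n = 6 and 12). *Plekha4* averaged 26.7 ± 7.93 and 18.1 ± 2.97 CPM, *Mboat1* 19.3 ± 3.44 and 14.2 ± 2.31 CPM, *Matn2* 62.9 ± 10.96 and 49.6 ± 8.44 CPM, *P2ry2* 6.59 ± 1.82 and 5.15 ± 1.48 CPM, and *Them5* 4.80 ± 2.18 and 2.82 ± 0.9998 CPM. They were chosen by their likeness to the 9 genes over the same samples, so their sex difference is a description.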
